A study of Rattus norvegicus with 8 samples.

Results

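The genes described here are 43 cell cycle, DNA replication and DNA repair genes of rat retinal ganglion cells (RGCs), the neurons that send axons from the retina to the brain. They were chosen by symbol alone: cyclins, cyclin-dependent kinases and their inhibitors, centromere and centrosome proteins, MCM, CDC, RFC and DNA polymerase genes, NEK kinases, cohesin, anaphase-promoting complex, topoisomerase, Fanconi anemia, RAD and E2F genes, leaving out the Cdc42 family. Of 32623 gene IDs counted, symbols were at hand for only 1998, a part of the study's gene table. The 43 members are those of the 1998 that matched, so other genes of these families may be missing. The rule read symbols and no measured value, but it was chosen with earlier results of these data known.

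RNA was sequenced from RGCs of Sprague Dawley rats at 2 stages, embryonic day 21 (E21) and postnatal day 11 (P11), with 4 libraries per stage, each from its own litter, and no other treatment or genotype. Embryos of pregnant dams or pups gave the retinas, which were dissociated with papain and passed over plates that first removed macrophages and then held RGCs by their surface Thy1, so a library represents the panned cells of a litter rather than single RGCs. The comparison between the stages addresses how RNA levels change in RGCs over the period in which their axon growth declines.

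DNA replication starts when the MCM helicase, loaded onto origins and switched on by the CDC7 and cyclin-dependent kinases, unwinds DNA. The clamp loader RFC then places the ring-shaped PCNA clamp that holds DNA polymerases on the template. Cyclin-dependent kinase 1 drives entry into mitosis, and the anaphase-promoting complex ends mitosis by marking securin and cyclins for destruction. RGCs are among the first retinal cells to leave the cell cycle, before birth, and do not divide again. Many of the proteins above have further roles in neurons without division, in DNA repair, cohesin-dependent gene regulation, centrosome-based microtubule organization and protein turnover.

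Reads on genes numbered 13899299 to 20116017 per E21 library and 14780002 to 17756824 per P11 library. A level is given here as CPM, the counts scaled to a common total of reads on genes by TMM, and 3 counts, taken as the detection floor, equal 0.152 to 0.219 CPM depending on the library. A floor of this kind covers counting error only. The share of reads aligned to more than 1 place was 40.3% ± 2.04 (SD, n = 4) at E21 and 34.7% ± 2.14 (SD, n = 4) at P11. Every E21 library (37.4% to 42.2%) was above every P11 library (31.7% to 36.3%). The exact permutation test (two-sided) gave p = 0.0286, the smallest that 4 against 4 allows. Its Benjamini-Hochberg adjusted p over 3 library measures was 0.0857. With the smallest p in this measure alone, the adjusted p could not go under 0.05. The neuronal genes Gap43, Rbfox3 and Uchl1 together reached 3355 to 3497 CPM at E21 and 2047 to 2176 CPM at P11. The fall lay mostly in Gap43, with a mean of 1711 CPM at E21 and 623 CPM at P11. Uchl1 had means of 1603 and 1382 CPM, and Rbfox3 of 119 and 126 CPM. The RGC genes Pou4f1, Rbpms and Thy1 were not analysed here, so the cell type was checked on general neuronal genes only.

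All 43 members were high enough to be tested, as were 1779 of the 1998 genes with a symbol, so the symbols at hand cover mostly expressed genes. Of the members, 34 had the higher mean level at E21. Log2 fold changes are given as E21 over P11, so a positive value means a higher level at E21 and a fall toward P11. Genes are said to have passed where edgeR's quasi-likelihood test gave a p under 0.01 once adjusted by Benjamini-Hochberg over 14043 tested genes. A gene is called changed here if its log2 fold change also lay beyond 1 in either direction. 2 members were called higher at E21, Mcm7 and Cenpv, which is 4.65% of the 43 against 8.16% of all genes tested. 4 members were called higher at P11, Cdk1, Nek7, Cdkn1a and Pole2, which is 9.30% against 16.5% of all genes. Large changes were thus no more frequent among the members than among all genes in either direction.

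Smaller changes were more often toward a higher level at E21. By adjusted p alone, 23 members (53.5%) passed with a higher level at E21, against 33.8% of all genes, and 7 (16.3%) passed with a higher level at P11, against 34.6%. 24 of these 30 members lay within the fold threshold, and 13 members did not pass. The stages did not overlap in any library for 21 members (48.8%) that were higher at E21, against 35.4% of all genes, and for 7 (16.3%) that were higher at P11, against 35.9%. The median log2 fold change was 0.28 over the members and 0.0042 over all genes. These shares are descriptions of a list and were not tested.

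**Figure D1:**
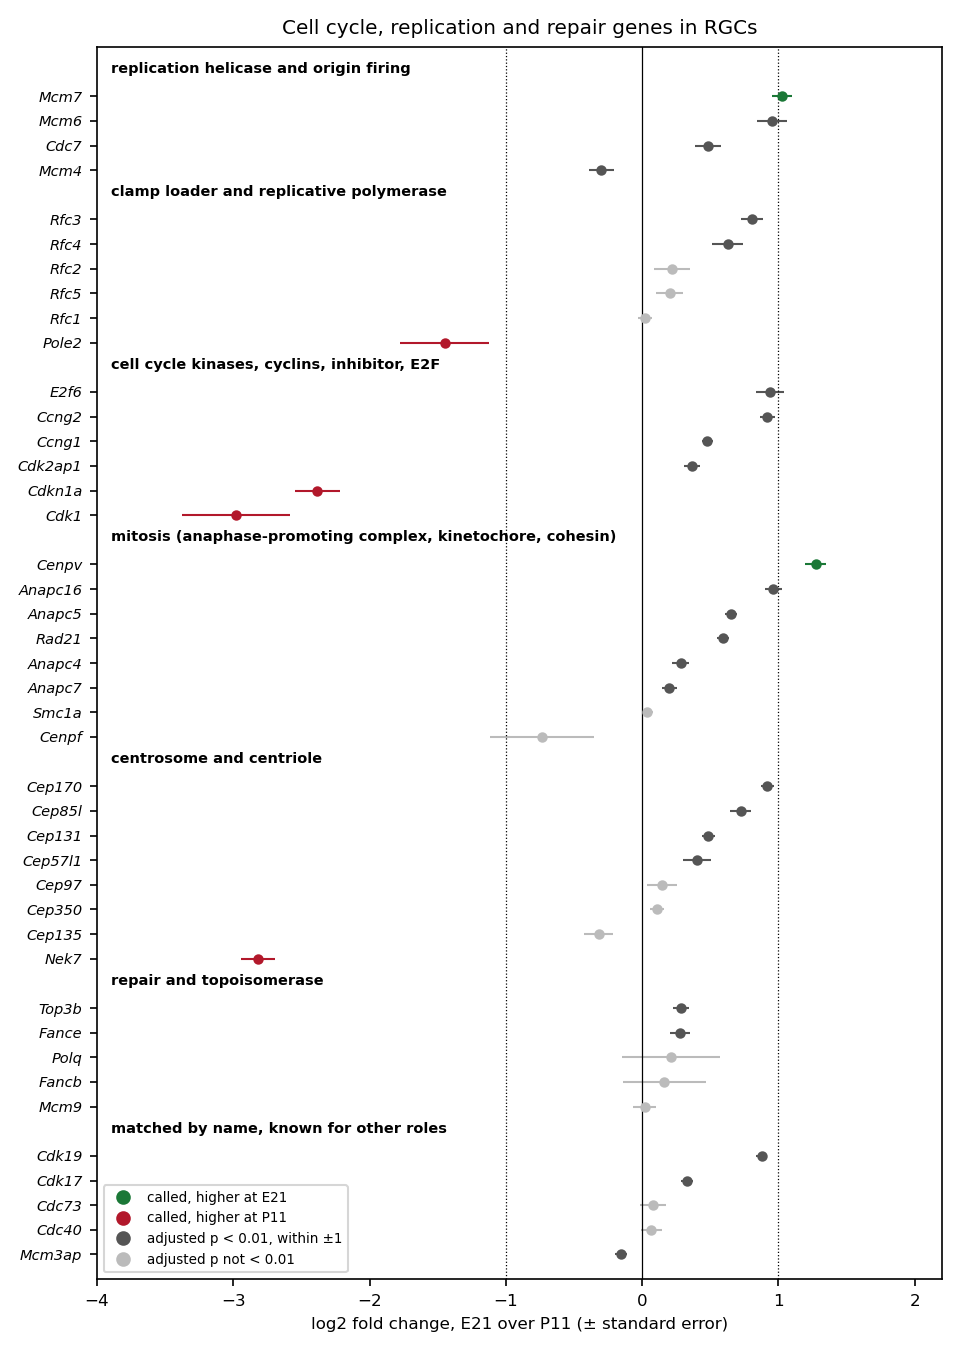
Log2 fold change (E21 over P11, x axis) of 42 of the genes with its standard error, grouped by role. The 2 genes called higher at E21 are green and the 4 called higher at P11 are red. Dark grey points passed by adjusted p but lie within 1 log2 unit of 0 (23 genes), and light grey points did not pass (13 genes). Most points sit slightly right of 0, while the 4 red points lie farther from 0 than any green one.

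Replicate libraries of a stage were close for most members. The coefficient of variation over 4 libraries had a median of 5.35% at E21 and 7.53% at P11, and it was under 15% for 36 members at E21 and 37 at P11. 5 members varied by more than 25% at each stage, among them Cdk1, Cenpf, Fancb and Polq at both. The others were Cdkn1a at E21 and Pole2 at P11, and all 6 of these genes were below 6 CPM in every E21 library.

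The helicase genes did not move together. Mcm7, Mcm6 and Mcm4 encode subunits of the same ring-shaped hexamer. Mcm7 (ENSRNOG00000001349) stood at 37.6, 34.9, 38.3 and 39.1 CPM in the 4 E21 libraries and at 16.9, 17.5, 18.1 and 20.9 CPM in the 4 P11 libraries. The lowest E21 library was well above the highest P11 library. The log2 fold change was 1.02 ± 0.07 (SE, adjusted p = 1.05e-09, edgeR's quasi-likelihood test), just past the fold threshold. It fell inside the threshold, at 0.99, without P11 replicate 1 or without P11 replicate 2, and at 0.97 with scaling by library size alone, and a test against the fold threshold itself (edgeR's glmTreat) did not call it (adjusted p = 0.681). Mcm6 had 31.1, 27.8, 24.7 and 28.8 CPM at E21 and 10.8, 15.9, 14.5 and 16.5 CPM at P11, again without overlap. Its log2 fold change of 0.95 ± 0.11 (SE, adjusted p = 2.62e-06) lay just inside the fold threshold, and it was past the threshold without E21 replicate 3 (1.01) or P11 replicate 4 (1.02).

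Mcm4 went in the opposite direction. Its levels were 18.7, 15.7, 17.0 and 16.3 CPM at E21 and 18.2, 21.01, 19.1 and 24.5 CPM at P11, with P11 replicate 1 inside the E21 range. The log2 fold change was -0.30 ± 0.09 (SE, adjusted p = 0.00798), and it did not pass when any of E21 replicates 2, 3 and 4 or P11 replicates 2 and 4 was left out, with adjusted p between 0.0149 and 0.0337. Within a library, the count ratio of Mcm7 to Mcm4 was 2.01 to 2.40 at E21 and 0.831 to 0.947 at P11. The ratio of Mcm6 to Mcm4 was 1.45 to 1.77 at E21 and 0.594 to 0.758 at P11. Neither ratio depends on scaling between libraries. Cdc7, the kinase that switches the helicase on, passed with a log2 fold change of 0.48 ± 0.09 (SE, adjusted p = 1.96e-04), from 15.2 to 17.6 CPM at E21 to 10.8 to 13.7 CPM at P11.

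The clamp loader divided in a similar way. Its large subunit Rfc1 stood at 44.6, 43.5, 44.7 and 47.8 CPM at E21 and 42.5, 46.5, 45.9 and 42.8 CPM at P11, with overlapping stages and a log2 fold change of 0.02 ± 0.05 (SE, adjusted p = 0.729). The 4 small subunits Rfc2 to Rfc5 form the rest of the ring. Rfc3 had 18.1, 16.9, 17.3 and 16.6 CPM at E21 and 9.48, 10.002, 9.39 and 10.5 CPM at P11, and fell by P11 with a log2 fold change of 0.80 ± 0.08 (SE, adjusted p = 9.71e-08). Rfc4 had 12.7, 9.98, 11.6 and 13.3 CPM at E21 and 6.72, 7.99, 8.19 and 7.69 CPM at P11, for a log2 fold change of 0.63 ± 0.11 (SE, adjusted p = 8.06e-05). For both genes every E21 library was above every P11 library.

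Rfc2 and Rfc5 did not pass. Rfc2 had 7.56, 7.40, 6.72 and 8.70 CPM at E21 and 6.25, 6.92, 5.27 and 7.42 CPM at P11, for a log2 fold change of 0.22 ± 0.13 (SE, adjusted p = 0.137). Rfc5 had 12.7, 16.6, 16.1 and 17.8 CPM at E21 and 12.5, 13.4, 14.0 and 14.9 CPM at P11, for a log2 fold change of 0.20 ± 0.10 (SE, adjusted p = 0.0778), and it passed without E21 replicate 1 (0.30, adjusted p = 0.00609). Their stages overlapped. The count ratio to Rfc1 within a library separated the stages for Rfc3 (0.347 to 0.407 at E21, 0.205 to 0.246 at P11) and for Rfc4 (0.230 to 0.284 at E21, 0.158 to 0.180 at P11). The same ratio overlapped between stages for Rfc2 and Rfc5.

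**Figure D2:**
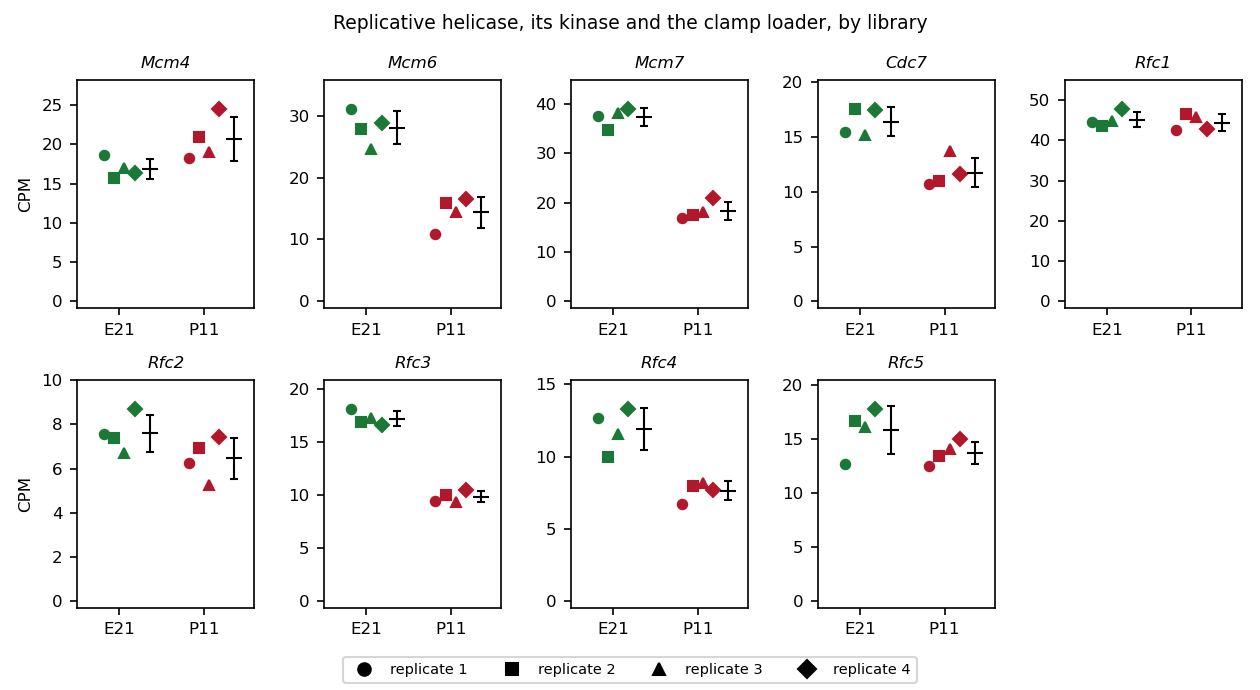
CPM (y axis, from 0) of the helicase genes Mcm4, Mcm6 and Mcm7, the kinase Cdc7 and the clamp loader genes Rfc1 to Rfc5, with a point for each of 4 E21 (green) and 4 P11 (red) libraries and the mean ± SD in black. Mcm6, Mcm7, Cdc7, Rfc3 and Rfc4 separate the stages with higher levels at E21, Mcm4 leans the other way, and Rfc1, Rfc2 and Rfc5 overlap.

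Pole2, the second subunit of the leading-strand DNA polymerase epsilon, rose. Pole2 (ENSRNOG00000004242) had only 5 to 9 counts in the E21 libraries and 10 to 29 in the P11 libraries. In CPM this was 0.469, 0.456, 0.367 and 0.366 at E21 and 0.672, 1.07, 1.21 and 1.58 at P11, without overlap. The log2 fold change was -1.45 ± 0.33 (SE, adjusted p = 7.29e-04). The glmTreat test did not call it (adjusted p = 0.145).

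Cdk1, the kinase of mitotic entry, had the largest change of the 43 in size. Cdk1 (ENSRNOG00000000632) was close to the detection floor at E21, with 4, 9, 4 and 6 counts, and had 42, 33, 25 and 83 counts in the P11 libraries. The levels were 0.268, 0.456, 0.210 and 0.439 CPM at E21 and 2.82, 1.95, 1.59 and 4.53 CPM at P11. No library overlapped, and P11 replicate 4 stood highest. The log2 fold change was -2.98 ± 0.40 (SE, adjusted p = 5.38e-06), a 7.89-fold higher level at P11, and -2.61 ± 0.34 (SE, adjusted p = 8.01e-07) without P11 replicate 4.

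Cdkn1a encodes p21, an inhibitor of cyclin-dependent kinases that is induced by p53 and other signals and is found in nondividing cells. Cdkn1a (ENSRNOG00000000521) rose from 4.15, 5.57, 5.82 and 3.07 CPM in the E21 libraries to 21.8, 23.3, 24.1 and 30.1 CPM in the P11 libraries. The lowest P11 library was several times the highest E21 library. On the log2 scale the change was -2.38 ± 0.16 (SE, adjusted p = 4.05e-08), or 5.21-fold. A cyclin-dependent kinase and an inhibitor of such kinases were thus both higher in the P11 libraries.

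The remaining genes of this group fell by less than the fold threshold. Ccng1, an atypical cyclin gene and p53 target, had 155, 150.05, 156 and 157 CPM at E21 and 112, 105, 114 and 112 CPM at P11, for a log2 fold change of 0.48 ± 0.04 (SE, adjusted p = 9.60e-09). Ccng2, a related cyclin gene whose RNA is known to rise in cells that stop dividing, had 78.5, 79.4, 85.3 and 89.5 CPM at E21 and 41.5, 46.0, 44.8 and 43.5 CPM at P11. This gave a log2 fold change of 0.92 ± 0.05 (SE, adjusted p = 1.05e-10), and the stages were far apart. E2f6, a repressor of the E2F family, fell with a log2 fold change of 0.94 ± 0.10 (SE, adjusted p = 2.32e-07). Cdk2ap1, which encodes a protein that binds CDK2, fell with a log2 fold change of 0.37 ± 0.06 (SE, adjusted p = 2.77e-05). Ccng1 and Cdkn1a, both known p53 targets, therefore moved in opposite directions.

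**Figure D3:**
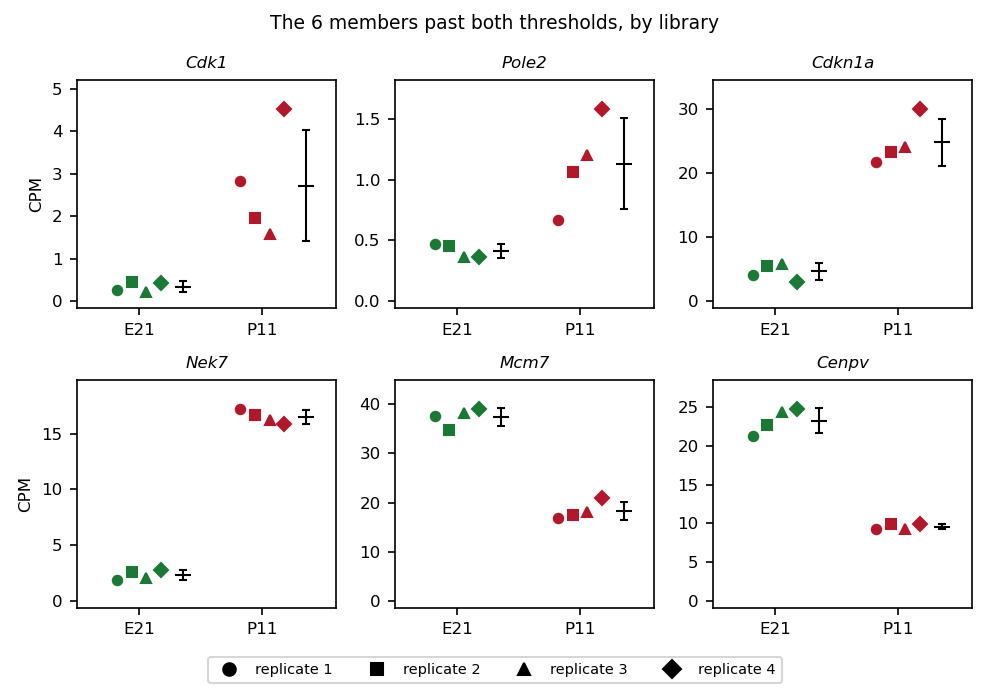
CPM (y axis, from 0) of the 6 genes called changed, with a point for each of 4 E21 (green) and 4 P11 (red) libraries and the mean ± SD in black. Cdk1, Pole2, Cdkn1a and Nek7 are higher at P11, Mcm7 and Cenpv are higher at E21, and in none of the 6 do the stages overlap. P11 replicate 4 (diamond) is the highest P11 library for Cdk1, Pole2, Cdkn1a and Mcm7.

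Of the 8 mitosis genes, 6 (75%) passed with higher levels at E21 and 0 with higher levels at P11 by edgeR's quasi-likelihood test, against 33.8% and 34.6% of all genes tested. The counts were also 6 and 0 by the DESeq2 Wald test, where 32.4% and 34.5% of all genes passed, and at an unadjusted p below 0.05, where 38.6% and 38.7% did. All 4 anaphase-promoting complex genes in the set were among the 6. Anapc5 had 354, 358, 362 and 378 CPM at E21 and 229, 216, 228 and 252 CPM at P11, for a log2 fold change of 0.65 ± 0.05 (SE, adjusted p = 1.14e-09). Anapc16, a small subunit, had 30.3, 31.9, 30.2 and 30.1 CPM at E21 and 16.1, 14.7, 15.6 and 16.5 CPM at P11, for a log2 fold change of 0.96 ± 0.06 (SE, adjusted p = 4.94e-10). Anapc4 had 55.3, 50.2, 56.6 and 55.9 CPM at E21 and 42.3, 43.7, 42.7 and 50.2 CPM at P11, with P11 replicate 4 just above the lowest E21 library. Its change was smaller (0.28 ± 0.06 SE, adjusted p = 6.10e-04). Anapc7 had 47.0, 51.3, 50.5 and 51.3 CPM at E21 and 40.8, 42.4, 45.4 and 45.7 CPM at P11, and changed least of the 4 (0.20 ± 0.05 SE, adjusted p = 0.00348). Anapc7 did not pass without E21 replicate 2 or 3 or P11 replicate 1 or 2 (adjusted p of 0.0107 to 0.0188), or with library size alone (0.0289). The count ratio of Anapc16 to Anapc4 was 0.533 to 0.636 at E21 and 0.328 to 0.380 at P11.

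Cohesin, the ring that holds sister chromatids together and also shapes chromatin loops in nondividing cells, showed a split between its subunits. Rad21, the subunit that closes the ring, had 167, 169, 175 and 165 CPM at E21 and 119, 106, 108 and 116 CPM at P11. This gave a log2 fold change of 0.59 ± 0.05 (SE, adjusted p = 2.79e-09). Smc1a, part of the body of the ring, had 173, 169, 173 and 179 CPM at E21 and 176, 162, 166 and 171 CPM at P11, which overlapped, with a log2 fold change of 0.04 ± 0.04 (SE, adjusted p = 0.408). The count ratio of Rad21 to Smc1a was 0.920 to 1.01 at E21 and 0.648 to 0.678 at P11.

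The centromere genes differed. Cenpv, which encodes a centromere protein also known to bind microtubules, had the highest E21 over P11 change of the 43. Cenpv (ENSRNOG00000003086) stood at 21.2, 22.6, 24.3 and 24.7 CPM at E21 and 9.27, 9.88, 9.33 and 9.87 CPM at P11. The log2 fold change was 1.27 ± 0.08 (SE, adjusted p = 1.79e-10). Cenpf, a kinetochore protein gene switched on in dividing cells, had levels of 3.41, 3.19, 2.41 and 1.68 CPM at E21 and 3.43, 2.60, 3.43 and 8.29 CPM at P11. 3 of its P11 libraries lay within or next to the E21 range and P11 replicate 4 stood apart. It did not pass, with a log2 fold change of -0.73 ± 0.38 (SE, adjusted p = 0.109), and of -0.22 ± 0.22 (SE, adjusted p = 0.375) without P11 replicate 4.

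Among the 8 centrosome and centriole genes, 4 (50%) passed with higher levels at E21, 1 (12.5%) with a higher level at P11, and 3 did not pass. Of all genes tested, 33.8% passed with a higher level at E21 and 34.6% with a higher level at P11. Nek7 (ENSRNOG00000000657), a kinase of spindle assembly and also a component of the NLRP3 inflammasome, rose. Its coefficient of variation was 18.0% at E21 and 3.61% at P11. It went from 1.87, 2.58, 2.10 and 2.78 CPM at E21 to 17.2, 16.7, 16.2 and 15.8 CPM at P11. On the log2 scale this was -2.82 ± 0.12 (SE, adjusted p = 2.06e-12), or 7.05-fold, and it stayed between -2.89 and -2.73 with any single library left out. The genes that fell were Cep170, which encodes a protein of the mother centriole's appendages, with 0.92 ± 0.05 (SE, adjusted p = 1.06e-11), and Cep85l, needed for neuronal migration, with 0.72 ± 0.08 (SE, adjusted p = 2.15e-07). Cep131, a gene for a centriolar satellite protein, fell with 0.49 ± 0.05 (SE, adjusted p = 1.30e-07), and Cep57l1 with 0.40 ± 0.10 (SE, adjusted p = 0.00177), which did not pass without P11 replicate 2 (adjusted p = 0.0112). Of the 3 that did not pass, Cep135, which encodes a protein of the centriole core, was at 6.43 to 7.19 CPM at E21 and 8.05 to 9.05 CPM at P11, without overlap but with an adjusted p of 0.0126, which became 0.00974 with DESeq2 size factors and 0.00497 with library size alone. Cep97, a gene for a protein of the centriole cap, and Cep350 had log2 fold changes of 0.15 ± 0.11 and 0.11 ± 0.05 (SE), with overlapping stages.

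Of the repair and topoisomerase genes, 0 were called changed by edgeR's quasi-likelihood test or by DESeq2, which called 7.90% of all genes higher at E21 and 16.7% higher at P11. Of the 6, 2 (33.3%) passed with higher levels at E21, near the share of all genes (33.8%). This was also the count by DESeq2 (32.4% of all genes) and at an unadjusted p below 0.05 (38.6% of all genes). Top3b, a topoisomerase that acts on DNA and RNA, fell with 0.28 ± 0.06 (SE, adjusted p = 4.49e-04), and Fance, of the Fanconi anemia core complex, with 0.28 ± 0.07 (SE, adjusted p = 0.00299). Fance did not pass without E21 replicate 4 (adjusted p = 0.0101) or P11 replicate 3 (0.0163), or with library size alone (0.0136). Fancb, of the same complex, had 11 to 35 counts per library and a log2 fold change of 0.16 ± 0.31 (SE), with an SE larger than the change. Polq, the polymerase of an error-prone end-joining pathway, had 28 to 114 counts and a log2 fold change of 0.21 ± 0.36 (SE). Its sign turned (-0.18) without E21 replicate 3, its highest library. Mcm9, which acts with recombination repair, had a log2 fold change of 0.02 ± 0.08 (SE) and overlapping stages.

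5 members match the naming pattern but are known for work outside the cell cycle. Cdk19, a kinase of the Mediator complex of transcription, fell from 96.8 to 100.5 CPM at E21 to 53.001 to 55.6 CPM at P11, for a log2 fold change of 0.88 ± 0.04 (SE, adjusted p = 7.01e-12). Cdk17, a kinase expressed in differentiated neurons, fell with 0.33 ± 0.05 (SE, adjusted p = 4.22e-06). Mcm3ap, which encodes an mRNA export factor, rose slightly with -0.16 ± 0.04 (SE, adjusted p = 0.00309), and did not pass without E21 replicate 3 (adjusted p = 0.0142). Cdc40, a splicing factor gene, and Cdc73, of the PAF1 transcription elongation complex, did not pass, at 0.07 ± 0.08 and 0.08 ± 0.09 (SE).

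The promoters of the members were read for sites that control cell cycle genes, a feature the choice of members did not use. E2F factors switch on replication genes at the start of S phase, and the cell cycle genes homology region (CHR) holds mitotic genes silent outside G2 and mitosis. RefSeq gave a promoter of 300 bases (250 before and 50 after the gene start, build GRCr8) for 35 of the 43, and the counts were made on another build, Rnor_6.0. The promoters of the other 8 members, among them Mcm4 and Rad21, were not at hand and were not read for any site. An E2F site (TTTCCCGC, TTTCGCGC, TTTGCCGC or TTTGGCGC, on either strand) was found in 6 of 35 member promoters (17.1%), those of Cdk1, Mcm6, Mcm7, Pole2, Rfc3 and Smc1a, against 2.14% of 33469 promoters. A CHR (TTTGAA, either strand) was found in 7 of 35 (20%), against 18.3% of all promoters. A CCAAT box (CCAAT, either strand) was found in 13 of 35 (37.1%), against 37.5%. A cAMP response element (the exact letters TGACGTCA, either strand), a site of CREB, was found in 0 of 35, against 1.83%. At a share this low, 0 of 35 says little. The study scored a CREB/ATF motif in open chromatin regions, not exact letters in fixed windows, so its CREB result cannot be set beside this count. Among the 21851 promoters of protein-coding genes alone, the shares were 2.74% (E2F), 17.1% (CHR), 38.0% (CCAAT box) and 2.10% (cAMP response element).

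The 6 stretches with an E2F site are printed below because the genes that hold one moved in both directions. They run 5′ to 3′ on the gene's strand, with E2F and CHR matches in capitals. Each ends before the annotated gene start, except those of Rfc3 and Pole2, which cross it and are cut to 30 bases.
Cdk1 (chr20:19265148-19265292, + strand): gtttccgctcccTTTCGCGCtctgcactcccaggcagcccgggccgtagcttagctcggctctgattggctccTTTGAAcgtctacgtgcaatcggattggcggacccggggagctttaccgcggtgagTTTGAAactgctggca
Mcm6 (chr13:42404383-42404497, - strand): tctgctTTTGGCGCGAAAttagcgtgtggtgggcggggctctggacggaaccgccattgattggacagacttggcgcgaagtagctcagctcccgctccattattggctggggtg
Mcm7 (chr12:22163179-22163278, - strand): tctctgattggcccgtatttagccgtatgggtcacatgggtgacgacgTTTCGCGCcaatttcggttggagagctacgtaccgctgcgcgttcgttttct
Smc1a (chrX:24582672-24582731, + strand): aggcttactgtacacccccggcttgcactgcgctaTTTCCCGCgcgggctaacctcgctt
Rfc3 (chr12:5836557-5836586, + strand): tcgcagccTTTCGCGCtcGCGGGAAAactc
Pole2 (chr6:93435337-93435366, - strand): gggcttcggcggtgGCGCCAAAtctcaaac
Mcm6, Mcm7 and Rfc3 fell, Cdk1 and Pole2 rose, and Smc1a did not pass. In Mcm6 the capitals are 2 matches that overlap, on opposite strands, and the Rfc3 stretch holds 2 that do not overlap. Cdk1 also carries 2 CHR matches, and its E2F match lies 133 bases before the start. A further E2F match of Mcm7, 233 bases before its start, and the CHR matches of Pole2 lie outside the stretches shown. A match of letters is not evidence that a factor binds there.

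P11 replicate 4 was the highest P11 library for Cdk1, Pole2 and Cenpf. It was also the highest for other members, such as Mcm4, Mcm6, Mcm7 and Cdkn1a, while Nek7 had its lowest P11 level there. The summed level of all 43 members peaked in that library too, at 1795 CPM, against 1704.5 to 1742 CPM in the other P11 libraries. This rank is therefore not particular to the genes named here, and its share over all genes was not counted. The other genes of replication and mitosis, 27 that did not match the naming pattern, were read for comparison. 1 of the 27 (3.70%) was called higher at E21 and 5 (18.5%) were called higher at P11, against 8.16% and 16.5% of all genes. By adjusted p alone, 9 (33.3%) and 8 (29.6%) passed, near the shares of all genes, and the median log2 fold change was 0.14. The 5 were Dtl (-2.81 ± 0.57 SE, adjusted p = 4.15e-04), an adaptor that removes the licensing factor CDT1, Cit (-2.51 ± 0.09 SE, adjusted p = 3.99e-12), a kinase of cytokinesis with a neuronal form, Pttg1 (-2.42 ± 0.38 SE, adjusted p = 1.93e-05), which encodes securin, Rpa1 (-1.19 ± 0.08 SE, adjusted p = 1.13e-09), which coats single-stranded DNA, and Kifc1 (-1.10 ± 0.24 SE, adjusted p = 7.99e-04), a spindle motor. Kifc1 lay inside the fold threshold without P11 replicate 4 (-0.85) or E21 replicate 1 (-0.92), and Dtl, with 0 counts in E21 replicates 1 and 4, reached -3.55 without E21 replicate 3. The gene called higher at E21 was G2e3 (1.08 ± 0.13 SE, adjusted p = 7.39e-07), a ubiquitin ligase, which fell inside the fold threshold without P11 replicate 2 (0.97).

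P11 replicate 4 was also the highest P11 library for Dtl, Pttg1 and Kifc1. Their levels there were 1.96, 2.51 and 7.58 CPM, against at most 1.34, 1.55 and 5.17 CPM in the other P11 libraries. Cit and Rpa1 were lowest in that library, with 87.7, 91.7, 90.0 and 75.4 CPM and 40.1, 41.3, 39.5 and 39.3 CPM in the 4 P11 libraries. Genes of blood vessels and their mural cells moved with the stage, and their summed level peaked in P11 replicate 4, although Flt4 alone was highest in P11 replicate 3 (7.74 CPM, against 7.04 CPM in replicate 4). 5 of the 6 genes in that list (Erg, Flt1, Flt4, Higd1b, Notch3, Rgs5) were tested, and all 5 were called higher at P11. The summed level of the 6 was 3.85 to 5.92 CPM at E21 and 289.0 to 567.3 CPM at P11, led by the pericyte gene Rgs5 at 208, 251, 151 and 317 CPM in the 4 P11 libraries. Erg, which marks endothelial cells, had 0 to 10 counts per library. The part of these cells in the levels of Cdk1, Pole2 and Cenpf was not tested. In RNA of a whole cell preparation, fewer cells of a type and less RNA per cell cannot be told apart.

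**Figure D4:**
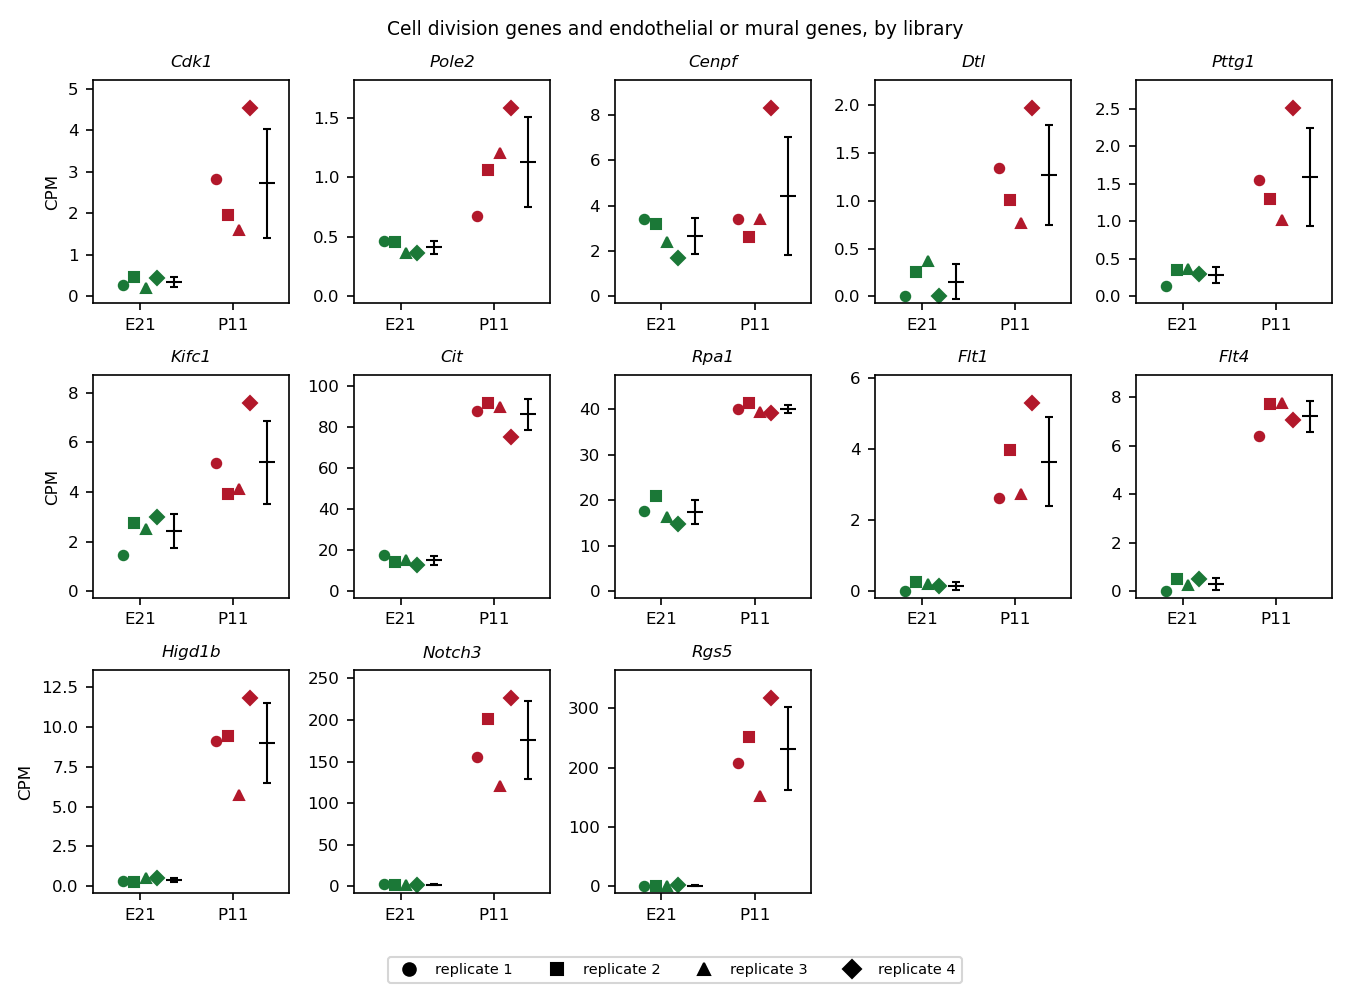
CPM (y axis, from 0) of the members Cdk1, Pole2 and Cenpf, of the 5 other division genes called higher at P11 and of the 5 vessel and mural genes tested, with a point for each of 4 E21 (green) and 4 P11 (red) libraries and the mean ± SD in black. P11 replicate 4 (diamond) is the highest P11 library in 10 of the 13 panels, while Flt4 is highest in P11 replicate 3 and Cit and Rpa1 are lowest in P11 replicate 4. The summed level of all 43 members is also highest in P11 replicate 4.

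Markers of other cells also differed between the stages. The 6 retinal progenitor genes summed to 9.12 to 12.4 CPM at E21 and 20.8 to 30.4 CPM at P11, with Hes1 called higher at P11 (-5.78 ± 0.36 SE, adjusted p = 1.59e-08) and Lfng called higher at E21 (1.86 ± 0.26 SE, adjusted p = 6.60e-06). The progenitor genes Atoh7, Foxn4 and Sox9 were too low to test, at 0 to 14 counts. The 4 microglia genes (Aif1, Alox5ap, Itgb2, Ptprc) were all too low to test and summed to at most 1.59 CPM. The astrocyte gene Gfap had at most 3 counts in any library, while the 5 Müller glia and astrocyte genes summed to 24.97 to 34.3 CPM at E21, almost all from Gja1, and 3.38 to 4.77 CPM at P11, where S100b and Slc4a4 were called higher. The 6 photoreceptor genes summed to 6.99 to 8.50 CPM at E21 and 29.9 to 49.4 CPM at P11, and the 3 oligodendrocyte genes to 36.3 to 46.8 and 18.8 to 21.4 CPM. The 4 bipolar genes summed to 41.4 to 49.0 CPM at E21 and 87.3 to 94.5 CPM at P11, a rise that lay in Prkca, while Grm6 passed in the other direction (0.82 ± 0.15 SE, adjusted p = 8.00e-05) and Lhx4, too low to test, was higher in every E21 library. The 2 amacrine genes summed to 6.29 to 7.30 CPM at E21 and 13.3 to 20.97 CPM at P11, a rise that lay in Gad1, while Prox1 was called higher at E21 (1.18 ± 0.15 SE, adjusted p = 1.60e-06). The part of these cells in the members' levels was not tested.

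Of 21 other repair genes, 7 (33.3%) passed with higher levels at E21, near the share of all genes (33.8%), and 1 (4.76%) with a higher level at P11 (34.6% of all genes), Babam2, while 0 were called changed in either direction by edgeR's quasi-likelihood test or by DESeq2. Of all genes, edgeR's test called 8.16% higher at E21 and 16.5% higher at P11, and DESeq2 called 7.90% and 16.7%. At an unadjusted p below 0.05 the counts for the 21 were 9 and 2, where 38.6% and 38.7% of all genes passed. The median log2 fold change of the 21 was 0.15. Of 7 antiproliferative and p53 response genes (Btg1, Btg2, Btg3, Ppm1d, Rchy1, Sesn1, Tob1), 6 (85.7%) passed with higher levels at E21 and 0 with higher levels at P11. The shares of all genes were 33.8% and 34.6%. The counts were the same by DESeq2, where 32.4% and 34.5% of all genes passed, and at an unadjusted p below 0.05, where 38.6% and 38.7% did. Their median log2 fold change was 0.35, opposite in sign to that of Cdkn1a. Btg2 did not pass (0.25 ± 0.14 SE, adjusted p = 0.127).

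10 of the 43 members overlap a protein-coding gene in the RefSeq annotation of GRCr8, among them Pole2 with Klhdc1, Anapc16 with Ascc1, E2f6 with Greb1, Cdk19 with Amd1 and Smc1a with Ribc1. Whether the counting used the strand is not given in the sources used here, so reads of these pairs may not have been kept apart.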

How the data were processed

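RNA of immunopanned RGCs was measured in 8 libraries, 4 per stage. The authors depleted ribosomal RNA, trimmed reads with cutadapt 1.16, aligned them with STAR 2.5.3a to Rnor_6.0 and counted them per Ensembl gene with HTSeq 0.6.1 (tools and versions from the submitters' processing notes). They deposited whole-number counts per library, neither normalized nor pooled. The annotation release and the strand setting are not given in the sources used here.

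The 5 HTSeq summary lines of each file, which name no gene, were kept out of totals and tests. Reads assigned to no gene were 15.4% to 19.2% and reads with several alignments 31.7% to 42.2% of the summed lines. Symbols came from the study's gene table, of which 1998 entries were at hand. Genes were kept by filterByExpr (14043 of 32623), scaled by TMM and tested with edgeR 4.0.16 (glmQLFit, robust, glmQLFTest) in R 4.3.3, over all genes, with Benjamini-Hochberg adjustment. The thresholds were an adjusted p of 0.01 and a log2 fold change of 1. The SE was taken as the size of the change over the root of its F statistic. No gene lengths of the build were used, so CPM levels are not corrected for length. In sums over a list, long or abundant genes weigh most. All libraries were sequenced in 1 lane. Alternatives were DESeq2 1.42.0 (test or size factors), library size alone, no filter beyond 1 count in any library, glmTreat, the replicate number as a block and each library left out. The gene test was tested on simulated data.

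The members, the gene lists and the tests were chosen with earlier results of these data known. All members may be named. Values in every library are given for called members, subunits of complexes and Cdk1, Cdkn1a, Ccng1 and Ccng2. From the other lists, called genes (at most 4 per direction) and, from marker lists, genes at or near 0 are named. Cit, Dtl, Pttg1, Rpa1 and Kifc1 are 5, so 1 is named beyond that rule, and Cenpf, Btg2, Babam2, Grm6 and Lhx4 were also chosen after their values were seen. Promoters came from RefSeq (GRCr8). The result of 1 member, counted in the totals, is not reported here.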

Additional observations from a re-analysis of the deposited data

Results flagged for a closer look

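In 5 of 86 groups of 4 libraries (43 genes at 2 stages), 1 library stood apart from the other 3 by Dixon's test at its 95% level. Chance gives about 1 in 20. Cenpf in P11 replicate 4 was at 8.29 CPM, against 2.60 to 3.43 CPM in the other P11 libraries. Cep97 in P11 replicate 2 was at 12.7 CPM, against 15.5 to 15.9 CPM. Cdc73 stood apart at both stages, in E21 replicate 2 at 10.8 CPM, against 12.3 to 12.5 CPM, and in P11 replicate 4 at 12.6 CPM, against 10.8 to 11.04 CPM. Anapc16 in E21 replicate 2 was at 31.9 CPM, against 30.1 to 30.3 CPM. Of these genes only Anapc16 passed in the comparison of the stages.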

How the results depend on the processing

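The number of members called higher at P11 was 4 under every alternative except glmTreat, where it was 3. Members called higher at E21 fell from 2 to 1 with library size alone and with glmTreat, since Mcm7 lies at the fold threshold. With glmTreat, 668 genes of all those tested were called higher at E21 in place of 1146, and 1649 higher at P11 in place of 2316, which follows from its stricter test. With 1 library left out, members called higher at E21 ranged from 1 to 3, members called higher at P11 from 4 to 4, members past the adjusted p alone from 21 to 24 and from 5 to 7, and all genes called from 1109 to 1225 and from 2337 to 2443. The sign turned for 5 genes that did not pass, and the cause was not tested. With library size alone these were Rfc1 (-0.033), Smc1a (-0.017) and Mcm9 (-0.035). With 1 library left out, Rfc1 ranged from -0.0026 to 0.034 (below 0 without P11 replicate 4), Mcm9 from -0.016 to 0.053 (E21 replicate 4, P11 replicate 3 or 4), Fancb from -0.031 to 0.36 (E21 replicate 1 or P11 replicate 1) and Polq from -0.18 to 0.42 (E21 replicate 3). Library size alone moved the median of all genes by -0.054. The labels number the replicates of both stages alike, but deviations of same-numbered libraries correlated at -0.021, 0.078, -0.027 and 0.072, and only replicates 2 and 4 correlated best with their own number, so the numbers were not taken as pairs. With the replicate block, 2 and 4 members were called higher at E21 and P11, 23 and 6 passed by adjusted p alone (Mcm4 did not, adjusted p = 0.0129), and 1147 and 2316 of all genes were called. Depth limits Cdk1, Pole2, Fancb and Polq, with 4 to 114 counts per library.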
